A study of Homo sapiens with 4 samples.

Results

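Integrin genes were examined in PAS-seq data, which count the 3′ ends of polyadenylated RNAs, from the esophageal squamous cell carcinoma (ESCC) lines KYSE30 and TE-1. The set held 10 genes, namely the alpha subunits ITGA2, ITGA3, ITGA5, ITGA6 and ITGAV and the beta subunits ITGB1, ITGB4, ITGB5, ITGB6 and ITGB8. A poly(A) site cluster (PAC), a group of neighboring 3′ ends, was given to a gene when its dominant site, the position with the most tags, lay in the same-strand GENCODE 44 span of that gene. By this rule 12 PACs fell in the 10 genes, of 17627 PACs listed and 11264 genes with a PAC. Each line gave 2 libraries, 1 from cells cultured for 24 h with 20 mM L-lactate, the other from PBS-treated control cells. The sample titles name the lines KYSE30 and TE-1 throughout, whereas the cell line field of the control samples reads KYSE32 and TE-3, and the titles were followed here. Both lines are established human cultures, and each condition was 1 library, so no error between cultures could be given. Recovered depth ran from 7174991 to 10393799 tags per library, and the lowest listed level was 1.06 to 1.12 TPM, tags of a PAC per 1000000 tags of the library.

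Integrins are membrane receptors made of 1 alpha and 1 beta subunit that tie the extracellular matrix to the cytoskeleton. The alpha subunit largely sets the ligand, and in stratified epithelia such as that of the esophagus the ITGA6 and ITGB4 pair anchors basal cells to laminin through hemidesmosomes, while receptors that hold ITGB1 work at focal adhesions. The 3′ untranslated region (UTR) of an mRNA ends at the poly(A) site, and a gene with several sites can make mRNAs with the same protein and UTRs of different length. Cleavage is usually directed by an AAUAAA or AUUAAA hexamer just upstream of the site, and UGUA elements further upstream bind the CFIm complex that contains NUDT21.

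All 10 genes had exactly 1 PAC in the 3′ UTR, so none offered a choice between separate 3′ UTR PACs. Among all genes with a 3′ UTR PAC, 7162 of 9982 (71.7%) also had 1. The distance from the stop codon to the dominant site differed widely among the members, from 263 nt in ITGB4 to 5756 nt in ITGB8. ITGA5 ended 1023 or 1029 nt past the stop codon, ITGB1 1178 nt, ITGB6 2064 nt and ITGA3 2146 nt. ITGAV ended at 3606 nt, ITGA2 at 4173 nt and ITGA6 at 4396 nt. The remaining 2 PACs were intronic and lay in intron 7 of the ITGAV transcript and intron 13 of the ITGB4 transcript. Most member PACs were narrow: 8 of 12 spanned 4 to 17 nt, and the other 4 PACs, those of ITGA6, ITGB1, ITGB5 and ITGB8, spanned 77 to 263 nt. No member PAC had 12 or more A within the 20 bases after its site, a feature that would mark priming on genomic A.

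The genomic sequence just upstream of the sites is given for the genes whose 3′ ends are described further on, from GRCh38, 5′ to 3′ on the gene's strand, with the poly(A) hexamer in capitals. ITGB5 is shown because its lines differed in dominant site, ITGA6, ITGB1 and ITGB8 because another position stood apart from the dominant one in their PACs, and ITGB4 and ITGAV because they had intronic PACs.
ITGB5 upstream site, minus strand, chr3:124763163-124763192: gaAATAAAaagatcctgcatttatggtgta
ITGB5 downstream site, minus strand, chr3:124762951-124762980: ATTAAAaccaaaagaatttgtgtttgtctg
ITGA6 upstream position, plus strand, chr2:172506165-172506194: aagtgtgaAATAAAttttttataaaagtgt
ITGA6 dominant site, plus strand, chr2:172506243-172506272: TATAAAtgacaacctgaattatctatttca
ITGB1 dominant site, minus strand, chr10:32900392-32900421: ATTAAAtatgcctaaaatacttaaatcgga
ITGB1 downstream position, minus strand, chr10:32900318-32900347: tttatagATTAAAgaagttgaggaaaagca
ITGB8 upstream position, plus strand, chr7:20415585-20415614: ttatgtatttATTAAAgagctgacactgta
ITGB8 dominant site, plus strand, chr7:20415724-20415753: tctgttttaaAATAAAaatgtaaaaatcta
ITGB4 3′ UTR site, plus strand, chr17:75757789-75757818: tgcacttAATAAAtggttttgctactgcta
ITGB4 intronic site, plus strand, chr17:75735059-75735088: cttgcaAATAAAgacaattttattgattga
ITGAV 3′ UTR site, plus strand, chr2:186680869-186680898: tgactgtacAATAAAcataagcatatggta
ITGAV intronic site, plus strand, chr2:186636660-186636689: ttaAATAAAagttttggtctttaggactta

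On the gene's strand only, AATAAA, the DNA form of the main hexamer, stood within 50 nt before the dominant site in 8 of the 10 member 3′ UTR PACs, against 66.6% of all 13690 3′ UTR PACs. With ATTAAA counted too, 9 of the 10 had a hexamer, against 83.5% of all. ITGA6 was the exception, with TATAAA before its dominant site. The TGTA element was found in the 100 nt upstream in 8 of the 10, against 57.9% of all 3′ UTR PACs. Each PAC was counted at the dominant site of the library with the most tags. ITGB5 was thus counted at its upstream site, the one dominant in TE-1 cells. Its downstream site, dominant in KYSE30 cells, had ATTAAA but neither AATAAA nor TGTA in these windows. Both intronic PACs had AATAAA, as did 66.5% of the 1118 intronic PACs listed. These are matches of letters anywhere in the window, and the only TGTA of ITGB8 lay past its AATAAA. They do not show that a factor was bound.

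The integrin set differed strongly between the lines. Levels are in TPM and sum the PACs of a gene, and where a pair of values is given for a line, that of the L-lactate library comes first unless stated otherwise. Each mRNA end is read once in this assay, so levels were not divided by transcript length. In KYSE30 cells, the 10 genes summed to 1263 TPM (L-lactate) and 1200 TPM (control), against 449 and 398 TPM in TE-1 cells. ITGA6 made up 54.8% and 50.7% of the alpha subunit tags in KYSE30 cells, against 19.0% and 17.4% in TE-1 cells, in L-lactate and control libraries. ITGB4 made up 60.4% and 59.1% of the beta subunit tags in KYSE30 cells, against 18.6% and 18.8% in TE-1 cells. Among the members, the leading subunits in TE-1 cells were ITGAV, with 29.6% and 32.7% of alpha tags, and ITGB1, with 47.0% in both libraries. All of these shares count the tags of the 10 members alone. ITGAE, an alpha subunit outside the set, lay above ITGAV in TE-1 cells, at 99.3 and 83.2 TPM. In bulk libraries such as these, fewer cells that express a gene and less RNA per cell cannot be told apart.

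Levels were tested with limma's moderated test on log2(TPM + 1), with line and treatment as terms and Benjamini-Hochberg adjustment over 10146 genes. ITGA2 and ITGB6 passed the minimum of 5 TPM through KYSE30 cells alone and so had to differ, and they are described without a test. The other 8 integrin genes were above 5 TPM in all 4 libraries, and all 8 differed between lines, with 5 higher in KYSE30 and 3 higher in TE-1. The background was high: of the 7443 genes above 5 TPM in all libraries, 69% were called, 34.1% as higher in KYSE30 cells and 34.9% as higher in TE-1 cells. Over all 10146 genes, 74% were called, 37.5% as higher in KYSE30 cells and 36.5% as higher in TE-1 cells, while 76% had an unadjusted p under 0.05. A difference past 1 on the log2 scale was called for 6 of the 8 integrin genes, against 22.7% of the 7443 genes. The median difference of the 8, TE-1 minus KYSE30, was -1.60 on the log2 scale against 0.01 for the 7443 genes, and the median absolute difference was 1.84 against 0.52. The error in this fit is the spread left among 4 libraries after both terms, with 1 residual degree of freedom, moderated over all genes. The restriction to genes above 5 TPM in all libraries was chosen after seeing the data.

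**Figure D1:**
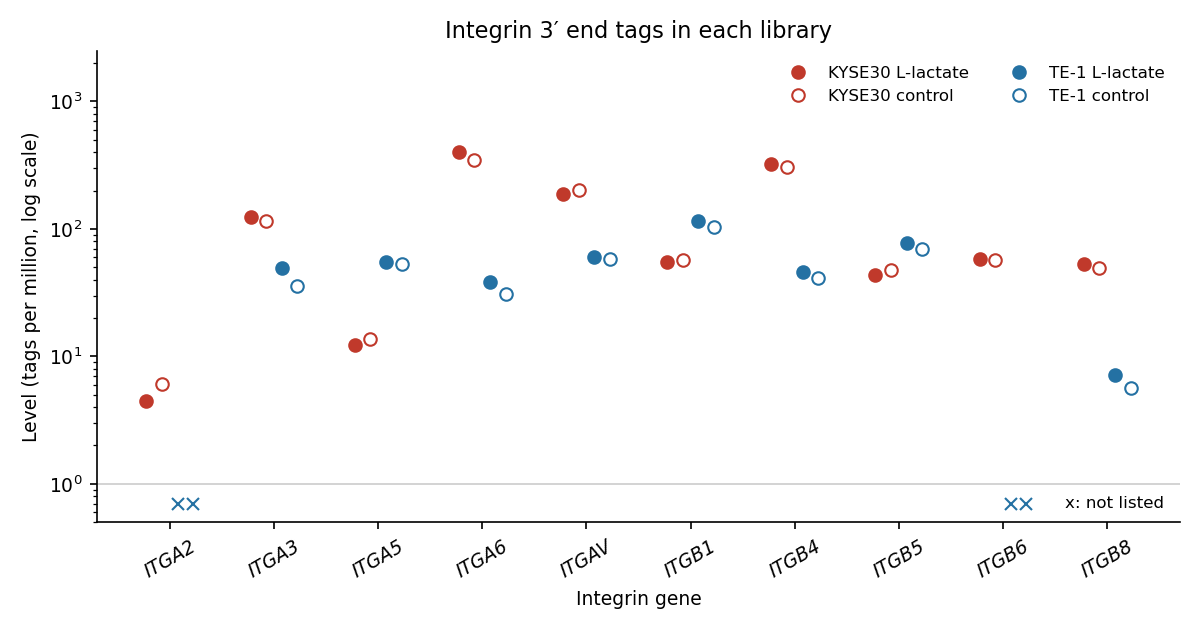
Level of each integrin gene in TPM (log scale) in each of the 4 libraries, with KYSE30 in red, TE-1 in blue, filled circles for L-lactate and open circles for control. The TE-1 libraries lie above the KYSE30 libraries for ITGA5, ITGB1 and ITGB5 and below them for the other 5 genes listed in all libraries, and crosses mark ITGA2 and ITGB6 as not listed in TE-1.

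ITGA6, ITGB4 and ITGA3, subunits found in laminin receptors, were higher in KYSE30 cells, whereas ITGB1, which joins ITGA3 in such a receptor, was higher in TE-1 cells. ITGA6, the alpha partner of ITGB4 in hemidesmosomes, stood in KYSE30 cells at 401 TPM with L-lactate and at 347 TPM without, against 38.5 and 31.1 TPM in TE-1 cells. It ranked 1st of the 10 members in both KYSE30 libraries and 7th in both TE-1 libraries, with no overlap between lines. The difference was -3.39 ± 0.08 on the log2 scale (TE-1 minus KYSE30, SE; limma adjusted p = 9.87e-09), and mean TPM was 10.7-fold higher in KYSE30 cells.

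ITGB4, a beta subunit that pairs only with ITGA6 and has a long cytoplasmic tail bound to plectin, had 322 and 305 TPM in KYSE30 cells, against 45.8 and 41.3 TPM in TE-1 cells. Both KYSE30 libraries lay above both TE-1 libraries, and the mean differed 7.20-fold. The log2 difference was -2.82 ± 0.08 (limma adjusted p = 2.06e-08). ITGA3, which joins ITGB1 in another laminin receptor, had 125 and 116 TPM in KYSE30 cells, against 49.6 and 35.4 TPM in TE-1 cells. The lines did not overlap, and the TE-1 libraries differed more from each other than the KYSE30 libraries did. Its log2 difference was -1.50 ± 0.11 (limma adjusted p = 3.57e-06), or 2.83-fold in mean TPM.

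ITGA2, the alpha subunit of a collagen receptor, was the lowest member, with 4.46 TPM (32 tags) in the L-lactate library of KYSE30 cells and 6.06 TPM (45 tags) in their control. It was not listed in either TE-1 library. The tables list only PACs above a minimum level, so no fold was computed for it, and its fitted difference depends on the pseudocount and is not used. ITGB6, an epithelial beta subunit that pairs with ITGAV and activates latent TGF-beta, showed the same pattern at a higher level, with 58.4 and 57.4 TPM in KYSE30 cells and no listing in TE-1 cells. No fold or test is given for it either. Of all genes tested, 6.04% were listed in both KYSE30 libraries and in no TE-1 library.

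ITGB8, the other ITGAV partner known to activate latent TGF-beta, had 53.5 and 49.4 TPM in KYSE30 cells, against 7.09 and 5.68 TPM in TE-1 cells. Every KYSE30 library was several times above every TE-1 library, although the TE-1 values rest on 60 and 59 tags. The log2 difference was -2.84 ± 0.14 (limma adjusted p = 4.87e-07), with an 8.07-fold difference in mean TPM. ITGAV itself, the shared alpha subunit of ITGB5, ITGB6 and ITGB8, had 189 and 202 TPM in KYSE30 cells, against 59.98 and 58.3 TPM in TE-1 cells. It ranked 3rd among the members in every library despite a 3.30-fold difference in mean. Its log2 difference was -1.71 ± 0.08 (limma adjusted p = 3.46e-07).

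ITGA5, ITGB1 and ITGB5 were higher in TE-1 cells. ITGA5, which forms the main fibronectin receptor with ITGB1, had 12.3 and 13.7 TPM in KYSE30 cells, against 54.8 and 53.3 TPM in TE-1 cells. It ranked 9th of the members in KYSE30 cells and 4th in TE-1 cells, and the lines did not overlap. Its log2 difference of 1.98 ± 0.13 (limma adjusted p = 1.86e-06), 4.16-fold in mean TPM, was the only one of the 3 past 1 on the log2 scale. ITGB1, the most widely shared beta subunit, had 55.2 and 57.0 TPM in KYSE30 cells, against 116 and 103 TPM in TE-1 cells. Its log2 difference was 0.95 ± 0.09 (limma adjusted p = 2.21e-05), or 1.95-fold. ITGB5, a beta subunit of a vitronectin receptor, had 43.5 and 47.8 TPM in KYSE30 cells, against 77.3 and 69.7 TPM in TE-1 cells. Its log2 difference was the smallest of the 8 tested, at 0.68 ± 0.11 (limma adjusted p = 0.000403), with 1.61-fold in mean TPM and no overlap between lines.

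The order of the members therefore changed between lines. In both KYSE30 libraries it ran ITGA6, ITGB4, ITGAV, ITGA3, ITGB6, ITGB1, ITGB8, ITGB5, ITGA5 and ITGA2. The neighbors ITGB6, ITGB1, ITGB8 and ITGB5 lay between 43.5 and 58.4 TPM there. ITGB6 (58.4 and 57.4 TPM) and ITGB1 (55.2 and 57.0 TPM) did not overlap but were close, and the ranges of ITGB8 (53.5 and 49.4 TPM) and ITGB5 (43.5 and 47.8 TPM) did not overlap either. In both TE-1 libraries the order began with ITGB1, ITGB5, ITGAV and ITGA5, and the next places changed between libraries, with ITGA3 above ITGB4 with L-lactate and below it in the control. ITGAV and ITGA5 were also close there, at 59.98 and 58.3 against 54.8 and 53.3 TPM.

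**Figure D2:**
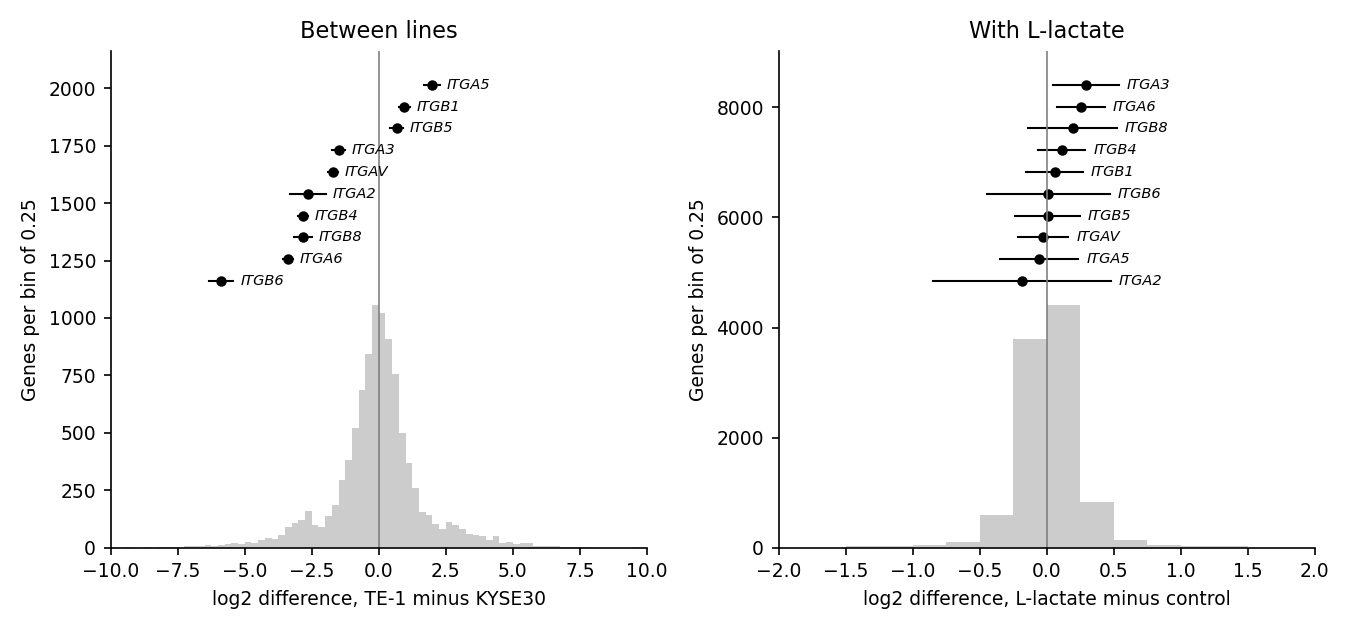
Log2 differences of log2(TPM + 1) for all 10146 genes tested (gray bars, genes per bin of 0.25) and for each integrin gene (points with 95% confidence intervals of the limma fit), between lines on the left and with L-lactate on the right. Between lines ITGA6 lies at -3.39 and ITGA5 at 1.98, the values of ITGA2 and ITGB6 depend on the pseudocount, and with L-lactate they run from -0.19 to 0.29, with intervals of most of them spanning 0.

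Patterns across the 4 libraries were also compared by Euclidean distance of log2(TPM + 1), as a description. IGFBP2 and ADD3 were close to ITGB6, at distances of 0.10 and 0.11. Both lay between 57.9 and 62.4 TPM in KYSE30 cells and were not listed in TE-1 cells. The genes nearest to ITGA5 were TOR3A, CDKN2A and GRAMD2B, at 0.12, 0.15 and 0.16, with 11.2 to 14.4 TPM in KYSE30 cells and 51.6 to 58.9 TPM in TE-1 cells.

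Of the 16 other integrin genes, 2 were listed, and the leukocyte and platelet integrins ITGAL, ITGAM, ITGAX, ITGAD, ITGB2, ITGB7, ITGA2B and ITGB3 were in no library. ITGA1, an alpha subunit of another collagen receptor, was listed in TE-1 cells alone, with 33.4 and 32.8 TPM. ITGAE, whose protein binds E-cadherin when paired with ITGB7, had 72.1 and 62.6 TPM in KYSE30 cells, against 99.3 and 83.2 TPM in TE-1 cells, a log2 difference of 0.43 ± 0.09 (limma adjusted p = 0.00170).

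Matrix ligands went both ways, with 12 of 22 tested genes called higher in KYSE30 cells, 9 higher in TE-1 cells and 1 not called. Of all genes tested, 37.5% and 36.5% were called in these directions. The counts of this and the following partner lists include genes listed in 1 line alone, which had to differ once they passed the minimum. FN1, which encodes fibronectin, had 74.1 TPM in the L-lactate library of KYSE30 cells, 128 TPM in their control and 2.60 TPM in the TE-1 control, and was not listed in the TE-1 L-lactate library. LAMC3, a laminin gamma chain, and NPNT, an ITGA8 ligand of basement membranes, were listed in TE-1 cells alone, at 36.7 and 36.2 TPM and at 39.2 and 36.9 TPM.

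Hemidesmosome partners were tested in 3 cases, of which 2 were higher in KYSE30 cells, as were 37.5% of all genes, and 1 was not called. PLEC, the gene for plectin, was in no library. Here and in the other lists, a gene in no library was given no listed PAC, which does not show that it was not expressed. DST, a gene for the plakin that links ITGB4 to keratin filaments, had 422 and 412 TPM in KYSE30 cells, against 37.9 and 32.2 TPM in TE-1 cells, a log2 difference of -3.54 ± 0.08 (limma adjusted p = 9.90e-09). COL17A1, a transmembrane collagen of the hemidesmosome, had 136 and 140 TPM in KYSE30 cells and was not listed in TE-1 cells. CD151, a tetraspanin bound to laminin receptors, lay at 122 to 140 TPM in all libraries and was not called (limma adjusted p = 0.53).

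Among the cytoplasmic partners, 10 of 20 tested genes were higher in TE-1 cells, 4 were higher in KYSE30 cells and 6 were not called, against 36.5% and 37.5% of all genes in these directions. FERMT2, which encodes a kindlin that activates integrins through the beta tail, had 4.18 and 4.44 TPM in KYSE30 cells, against 28.9 and 28.8 TPM in TE-1 cells, a log2 difference of 2.49 ± 0.17. TNS1, a tensin, was listed in TE-1 cells alone, at 5.67 and 5.68 TPM. The focal adhesion kinase gene PTK2 fell from 228 and 217 TPM in KYSE30 cells to 95.5 and 82.4 TPM in TE-1 cells, a log2 difference of -1.31 ± 0.08. The adaptor gene PXN had 365 and 333 TPM in KYSE30 cells, against 188 and 172 TPM in TE-1 cells. The log2 difference of PXN was -0.95 ± 0.07.

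**Figure D3:**
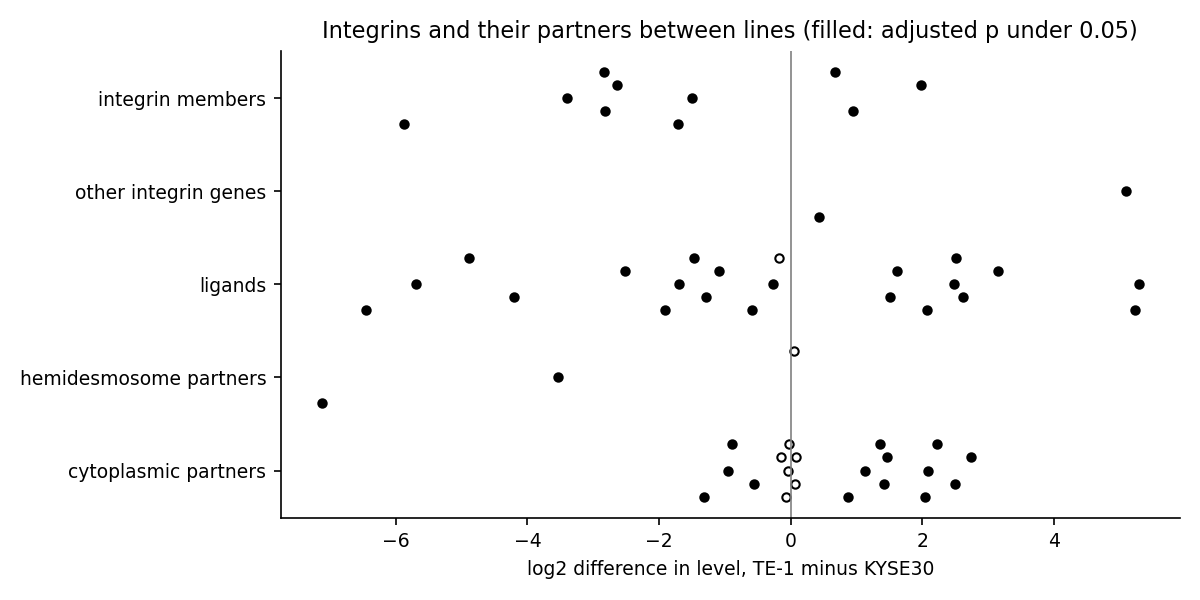
Log2 difference in level, TE-1 minus KYSE30, for the integrin members and for the tested genes of 4 lists of integrin partners, with filled points for genes called by limma at an adjusted p under 0.05. Hemidesmosome partners lie at or left of about 0, ligands spread to both sides, and 10 of the 20 cytoplasmic partners are called on the right. Points of genes listed in 1 line alone, ITGA2 and ITGB6 among them, depend on the pseudocount.

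The cell type markers also differed between lines. Of 10 squamous epithelial markers 6 were listed, of which 4 were called higher in KYSE30 cells and 2 higher in TE-1 cells. Among all tested genes, 37.5% and 36.5% were called in these directions. KRT6A and KRT17, each listed in 1 line alone, had to differ once they passed the minimum. The markers KRT5, KRT14, TP63 and SFN were in no library, which does not show that they were not expressed. The highest in KYSE30 cells, chosen here after their values were seen, were the epithelial adhesion gene EPCAM, with 635 and 563 TPM against 36.4 and 30.7 TPM in TE-1 cells, and PERP, a desmosome gene, with 343 and 331 TPM against 143 and 101 TPM. CDH1, the gene for E-cadherin, had 228 and 204 TPM in KYSE30 cells, against 1.30 TPM with L-lactate and no listing in the TE-1 control. The keratin gene KRT6A had 40.4 and 20.3 TPM in KYSE30 cells and was not listed in TE-1 cells. The keratin gene KRT17 was listed in TE-1 cells alone, at 187 and 245 TPM, and DSP, the gene for desmoplakin, had 180 and 187 TPM in KYSE30 cells, against 306 and 257 TPM in TE-1 cells. The summed level of the squamous list was 1426 and 1306 TPM in KYSE30 cells, against 674 and 633 TPM in TE-1 cells. EPCAM was the largest part of the KYSE30 sums, so the sums mostly follow that gene, and KRT17 and DSP went the other way. Of 5 fibroblast markers 3 were listed, in TE-1 cells alone, at a summed 15.4 and 16.6 TPM, with COL1A2 and LUM in no library. Of 3 endothelial markers only CDH5 was listed, in KYSE30 cells, at 11.2 and 16.2 TPM, and 0 of 4 leukocyte markers were listed. The part of these markers in the integrin differences was not tested.

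With L-lactate, the same limma fit called 0 of 10 integrin genes and 0 of all 10146 genes (0%) after Benjamini-Hochberg adjustment, while 978 genes (9.64%) had an unadjusted p under 0.05. Among the members, 2 had an unadjusted p under 0.05, ITGA6 and ITGA3, both higher with L-lactate, as were 5.77% of all genes. The median of the 10 log2 differences was 0.04 against 0.02 for all genes, and their median absolute difference was 0.09 against 0.11. Of the 8 members listed in all 4 libraries, 4 were higher with L-lactate in both lines, namely ITGA3, ITGA6, ITGB4 and ITGB8. The share of all genes that did so was not computed, so this count does not set the integrin genes apart.

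ITGA6 had 347 TPM in the control and 401 TPM with L-lactate in KYSE30 cells, and 31.1 and 38.5 TPM in TE-1 cells. The L-lactate library was above the control in both lines, without passing the adjusted threshold. Its log2 difference over both lines was 0.25 with a 95% interval of 0.07 to 0.43 (limma adjusted p = 0.44). Within lines, the log2 ratio of L-lactate over control was 0.21 in KYSE30 cells, with a counting interval of 0.13 to 0.29, and 0.31 in TE-1 cells, with one of 0.08 to 0.54. These exact 95% intervals cover the counting of tags only, not differences between cultures.

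ITGA3 had 116 TPM in the control and 125 TPM with L-lactate in KYSE30 cells, and 35.4 and 49.6 TPM in TE-1 cells. The log2 difference over both lines was 0.29, with an interval of 0.05 to 0.54 (limma adjusted p = 0.48). The within-line log2 ratio was 0.49 in TE-1 cells, with a counting interval of 0.28 to 0.69, and 0.11 in KYSE30 cells, with one of -0.02 to 0.25. ITGB4 and ITGB8 gave ratios of 0.08 and 0.11 in KYSE30 cells, against 0.15 and 0.32 in TE-1 cells. The counting intervals of both spanned 0 in both lines. Differences in ITGA2 and ITGB6 could be read in KYSE30 cells alone, with log2 ratios of -0.44 (counting interval -1.14 to 0.24) and 0.03 (counting interval -0.17 to 0.22).

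ITGA5, ITGAV, ITGB1 and ITGB5 were lower with L-lactate in KYSE30 cells and higher in TE-1 cells. In KYSE30 cells their log2 ratios were -0.16, -0.09, -0.05 and -0.14, and each counting interval spanned 0. In TE-1 cells they were 0.04, 0.04, 0.16 and 0.15, of which that of ITGB1 alone had a counting interval above 0 (0.04 to 0.29). In the limma fit over both lines, the 95% interval of ITGAV ran from -0.21 to 0.16 and that of ITGB1 from -0.15 to 0.27, whereas that of ITGA2, the lowest member, ran from -0.85 to 0.48.

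**Figure D4:**
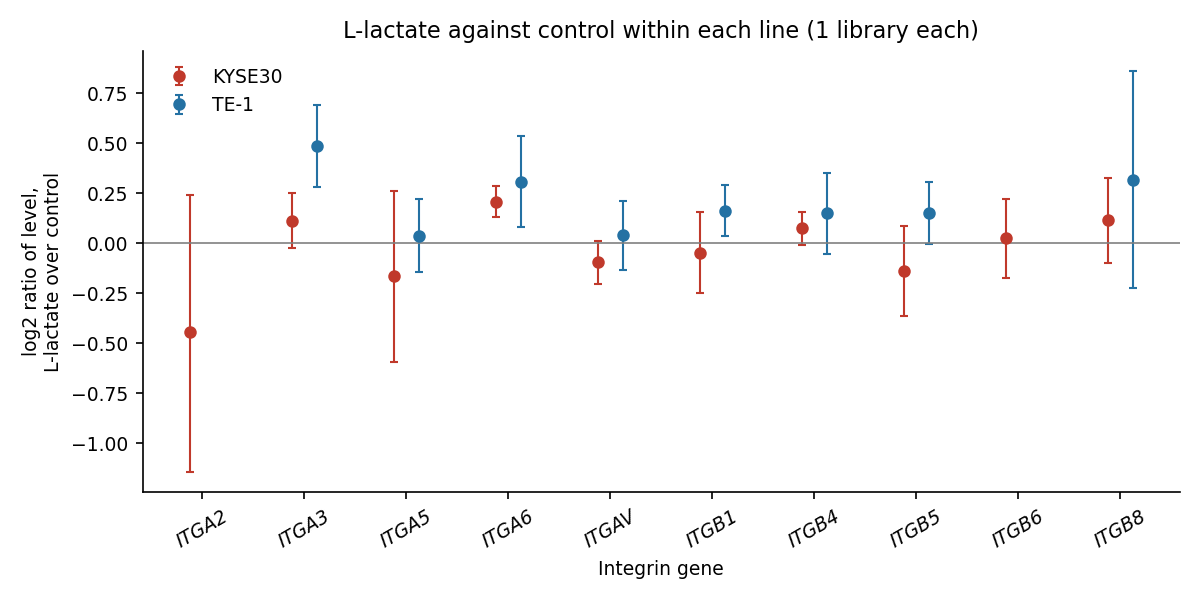
Log2 ratio of the level with L-lactate over the control within KYSE30 (red) and TE-1 (blue) for each integrin gene, with exact 95% intervals for counting error, from 1 library per condition. ITGA6 lies above 0 in both lines with its intervals, ITGA3 does so in TE-1 alone, and ITGA2 and ITGB6 have no TE-1 value.

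The use of sites within the single 3′ UTR PACs was then compared between lines. ITGB5 had another dominant site in each line. In KYSE30 cells the dominant site lay 673 nt past the stop codon and took 59.6% of the tags of the PAC in the L-lactate library (186 of 312; 95% Wilson interval 54.1 to 64.9) and 56.6% without L-lactate (201 of 355; 51.4 to 61.7). In TE-1 cells it lay 460 nt past the stop codon, with 43.4% of tags in the L-lactate library (284 of 655; 39.6 to 47.2) and 50.6% without L-lactate (366 of 724; 46.9 to 54.2). The site used most in KYSE30 cells thus gave a 3′ UTR that was 213 nt longer, and no library of one line shared its dominant site with the other line.

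Tags at sites that are not dominant are not listed singly, but the most that the downstream site of ITGB5 could hold in TE-1 cells follows from the listed share of the upstream site. This maximum was 49.4% in the control and 43.4% with L-lactate, so the downstream share was lower in TE-1 cells by at least 7.17 percentage points in the control pair and by at least 16.3 points in the L-lactate pair. These bounds hold for the tags as counted and leave out counting error. As shown in the sequences, the upstream site follows AATAAA and the downstream site ATTAAA. Both sites lay well before the annotated end of ITGB5, by 1002 nt from the downstream and 1215 nt from the upstream site. Of the 7 member PACs with TPM above 5 in all libraries and 1 dominant site within each line, 1 had dominant sites over 24 nt apart between lines, against 0.862% of the 8237 such PACs. PACs of up to 24 nt, which could not differ by this much, are in both counts.

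ITGB8 differed with treatment in its quantile positions, which mark where the tags of a PAC, summed along it, reach 10% and 90%. The upstream position was 5617 nt past the stop codon in both control libraries and 5756 nt in both L-lactate libraries, a step of 139 nt. Of the member PACs with TPM above 5 in all libraries, 1 of 8 moved over 24 nt this way in both lines, against 0.236% of 8909 PACs, and none moved the other way (0.0898% of PACs). PACs of up to 24 nt, which could not move that far, are in both counts, and 1 member gives no rate for the set. The dominant site, at 5756 nt, was the same in all libraries, and its share in KYSE30 cells was 83.1% with L-lactate and 82.8% without, and in TE-1 cells 91.7% and 91.5%. These shares were nearly the same with and without L-lactate, whereas the quantile position moved. In the TE-1 control the sites other than the dominant one held 8.47% of tags in all, less than the 10% that the quantile names, so the listed positions do not follow exactly from the listed tags.

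The dominant share of ITGB8 differed between lines more than between treatments. In a limma fit of the share over 8058 PACs with the same dominant site in all libraries, added after the data were seen, it was 8.64 ± 0.19 percentage points higher in TE-1 cells (SE; limma adjusted p = 0.31). This fit called 0 PACs after Benjamini-Hochberg adjustment (0%), with 1103 (13.7%) at an unadjusted p under 0.05 between lines and 702 (8.71%) with L-lactate. The TE-1 shares of ITGB8 rest on 60 and 59 tags, and their Wilson intervals, 81.9 to 96.4% and 81.6 to 96.3%, overlap those of KYSE30 cells.

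**Figure D5:**
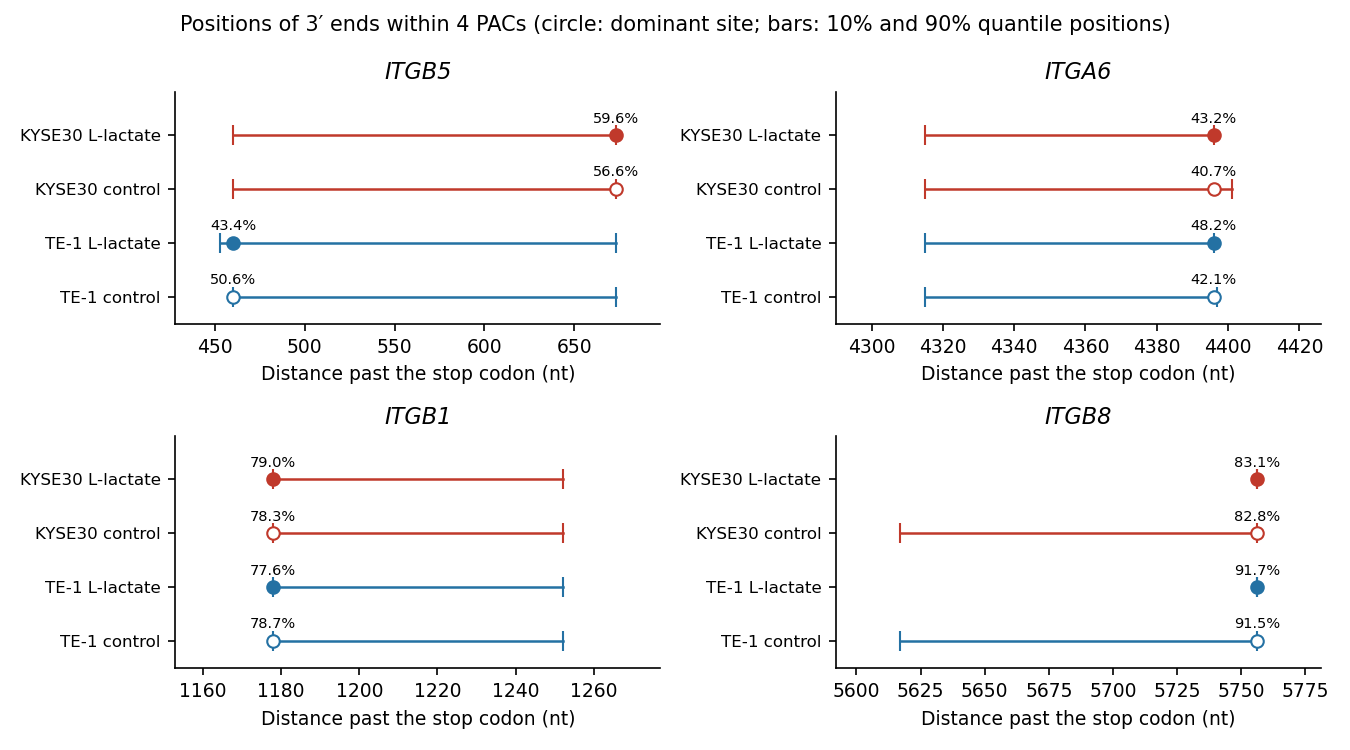
Dominant site (circle, with its percentage of the tags of the PAC) and 10% and 90% quantile positions (bars) in the 3′ UTR PACs of ITGB5, ITGA6, ITGB1 and ITGB8, in nt past the stop codon, in each library. The dominant site of ITGB5 is at 673 nt in the KYSE30 libraries and at 460 nt in the TE-1 libraries, and the upstream quantile position of ITGB8 is at 5617 nt in the controls and at 5756 nt with L-lactate. The share of the dominant ITGB8 site is nearly the same with and without L-lactate in each line.

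The dominant site of ITGA6, 4396 nt past the stop codon, was the same in all libraries and held 43.2% and 40.7% of tags in KYSE30 cells, against 48.2% and 42.1% in TE-1 cells. It was higher with L-lactate in both lines, by 4.31 ± 1.42 percentage points in the fit of shares (SE; limma adjusted p = 0.65). The upstream quantile position was 4315 nt past the stop codon in every library. The upstream position, 81 nt away, follows AATAAA, and neither AATAAA nor ATTAAA stood within 50 nt before the dominant site.

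ITGB1 kept its dominant site at 1178 nt in all libraries, with a share between 77.6% and 79.0%. Another quantile position lay 74 nt downstream in every library, and each follows its own ATTAAA. The share differed by -0.54 ± 0.79 points between lines and by -0.16 ± 0.79 points with L-lactate (SE; limma adjusted p = 0.90 and 1). ITGB4 had shares of 84.3% to 86.8%, ITGA3 of 76.7% to 83.2% and ITGAV of 48.8% to 53.8% at dominant sites common to all libraries. None of them passed the test for line or L-lactate. The dominant site of ITGA5 alternated between positions 6 nt apart, at 1029 nt in the KYSE30 L-lactate and TE-1 control libraries and at 1023 nt in the others, and so followed neither line nor treatment.

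Intronic PACs were a small share of the tags of their genes. The intronic PAC of ITGB4 held 1.99% of the tags of ITGB4 in the L-lactate library of KYSE30 cells (46 tags; Wilson interval 1.498 to 2.65) and 1.32% in their control (30 tags; 0.93 to 1.88). In TE-1 cells it held 2.58% (10 tags; 1.41 to 4.68) and 3.03% (13 tags; 1.78 to 5.11). The intervals of all 4 libraries overlapped. The intronic PAC of ITGAV held 1.55% (21 tags) and 2.07% (31 tags) in KYSE30 cells and was not listed in TE-1 cells, where the gene had 508 and 606 tags in all. The lowest PACs listed in the TE-1 libraries had 9 and 11 tags, so an intronic PAC of ITGAV with fewer tags would not have been listed there.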

How the data were processed

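Libraries of KYSE30 and TE-1 cells, given L-lactate or PBS, were grouped by sample title. The authors trimmed reads with FASTX-Toolkit, aligned them to GRCh38 with HISAT2 and built PACs with CAGEr. The deposited values, named TPM by the authors, are tags per 1000000 tags of a library (RPM) with no correction for length. The authors report that sites under 1 TPM and clusters of 1 site under 3 TPM were dropped. They do not state whether this was done within each library. A PAC that is missing from a table is called not listed. The submitters' processing notes name the build GRCh38, patch p14. Dominant sites and quantile positions came from the same tables, and start positions were converted to count from 1.

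Tables were joined on cluster number, and PACs were placed on GENCODE 44. Library depth was recovered from the steps between low values, which were whole tags within 0.02. TPM was summed per gene and tested with limma 3.58.1 (R 4.3.3) on log2(TPM + 1), over genes with TPM above 5 in at least 1 library, with line and treatment as terms. Calls were made at a Benjamini-Hochberg adjusted p under 0.05. On simulated data for the comparison between lines, all 100 genes changed by 1 and all 100 changed by 2 on the log2 scale were called, with 7 of 9946 unchanged genes. In that simulation every gene had the same spread, no gene was unlisted in a line and most genes were unchanged, whereas 74% of real genes were called. It therefore does not give the error rates of the real calls. Shares carry Wilson intervals and within-line ratios exact intervals, which cover counting error only. With 1 library per line and treatment, p-values measure the spread among these 4 libraries.

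The planned fit of distal PAC usage was not run because no member has 2 PACs in the 3′ UTR, and a fit of the share of the dominant site was added after the data were seen. All members are named, with up to 4 genes of each partner or marker list: those called with the largest rises and falls between lines, otherwise those with the highest mean. Some genes that this rule names are not reported here. The members and lists were chosen with earlier results of these data known. Analyses used Python 3.11.15 with pandas 2.3.3 and SciPy 1.17.1. The alternatives tried were other pseudocounts, filters, centering, PAC sets, terms and windows.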

Additional observations from a re-analysis of the deposited data

Results flagged for a closer look

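For 4 integrin genes the L-lactate and control libraries differed in opposite directions in the lines, lower with L-lactate in KYSE30 cells and higher in TE-1 cells. The log2 ratio in TE-1 cells minus that in KYSE30 cells was 0.2032 for ITGA5, 0.1352 for ITGAV, 0.2103 for ITGB1 and 0.2877 for ITGB5. Only for ITGB1 in TE-1 cells did the counting interval (0.04 to 0.29) lie on 1 side of no difference. The median log2(TPM + 1) of the tested genes was 4.662 in the TE-1 L-lactate library and 4.608 in the TE-1 control. That gap is larger than the TE-1 ratios of ITGA5 and ITGAV (0.04 each), so their direction in TE-1 cells depends on centering. With 1 library per line and treatment, the difference between the lines was not tested.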

How the results depend on the processing

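The calls of the integrin genes between lines, of which those of ITGA2 and ITGB6 were set by their entry, were made with the same direction under every pseudocount, filter, PAC set and centering tried, except that ITGA2 was not tested with TPM above 20 as the minimum. The counts of genes called between lines stayed within 1.5 times of the reported ones under these settings. The calls with L-lactate over all genes did depend on the setting. Against 0 genes as reported, 108 were called higher and 58 lower with a pseudocount of 5, 3 higher and 1 lower with TPM above 20, 8 higher and 4 lower after centering on the median, and 2 higher with 3′ UTR PACs alone. The integrin genes were not among the calls in any of these settings, and the cause was not tested. After centering, the differences of ITGB5 and ITGB6 with L-lactate changed sign to -0.017 and -0.012, against 0.01 for each as reported. TGTA was found upstream of 10 of the 12 member PACs within 100 nt and of 6 within 60 nt, as the shorter window covers less sequence. The fit has line as a term, so L-lactate is compared with control within each line. Without that term 0 genes were called with L-lactate. The labels carry no replicate numbers for any other pairing, and leaving out a library would leave no residual degrees of freedom. Values within 1 treatment or 1 line were given no test. The planned count-based tests were not run, nor were the planned fits of distal PAC usage, in which no member could take part. Levels near 1 TPM rest on about 10 tags, which limits the intronic PAC of ITGB4 in TE-1 cells (10 and 13 tags). ITGA2, the TE-1 values of ITGB8 and the intronic PACs in KYSE30 cells rest on 21 to 60 tags, which is also few.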
